A study of Mus musculus with 127 samples.

Results

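The 55 genes described here encode chromatin remodelling proteins outside the CHD family and enzymes that write or erase histone marks. They were taken by symbol from a list, with no measured value in the rule, and are 55 of the 54838 genes in the deposited count tables. RNA was sequenced from cortex of mice aged around 60 days, from whole tissue and from nuclear, synaptic and cytosolic fractions, to ask how loss of Chd8, itself a chromatin remodeller of the CHD family, changes expression in the adult cortex and in its compartments. The mice of the germline line were wild-type littermates (WT) and Chd8+/5bpdel heterozygotes (HET), which carry a deletion of 5 bases in 1 allele in every cell. Germline whole cortex comprised 15 WT and 16 HET libraries, the nuclear fraction 12 and 9, the synaptic fraction 11 and 7, and the cytosolic fraction 5 and 7. In the conditional line the fractions came from mice that all carried Camk2a-Cre, a recombinase driven by a promoter of forebrain excitatory neurons, so other cell types are expected to keep Chd8. These were Chd8+/+ (WT, 4 nuclear and 4 synaptic libraries), Chd8+/flox (HET, 6 and 5) and Chd8 flox/flox (HOM, 3 and 5). One animal is labelled HET in its nuclear library (female 4) and HOM in its synaptic library (female 2), so the genotype of 1 of these libraries is in doubt. It was left out where libraries were paired by animal, and without its library the counts of chromatin genes called in the conditional nuclear HET and synaptic HOM comparisons stayed at 0, with medians of -0.02 and 0.0093. Conditional whole cortex compared 8 Chd8+/flox libraries without Cre with 6 Chd8+/flox libraries with Cre, so the presence of Cre and the deletion cannot be told apart there. The titles give those genotypes, while the protocol text counts wild-type mice among them, and the titles were followed. The strain and the number of litters are not given in the sources used here.

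Chromatin remodellers use ATP to slide, evict or exchange nucleosomes and work as multi-subunit complexes: BAF and PBAF, the ISWI complexes, and the INO80 and SWR1 families. Histone methyltransferases and demethylases, acetyltransferases and deacetylases change marks on histone tails that other proteins read. Several of these genes, among them Arid1b, Kmt2a, Kmt2c, Setd5, Ash1l and Kmt5b, are known together with Chd8 as genes in which heterozygous loss is linked to autism and intellectual disability. The proteins work in the nucleus, whereas what was measured here is their poly(A) RNA.

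Depth was 19 to 134.6 M counts per library (germline cortex 19 to 30.5, the fractions 23.2 to 56.6, conditional cortex 98.1 to 134.6). All 55 genes passed the filter on low counts in every comparison, and the lowest count of any of them in any library was 19 (Srcap). The summed level of 10 nuclear-retained RNAs such as Malat1 and Meg3 was 16657 to 34114 CPM (counts per M counts of the library) in nuclear libraries and 512 to 3408 CPM in synaptic ones, except in synaptic WT males 1 and 2 of the germline line, which held 31838 and 33482 CPM and so stood with the nuclear libraries. Counts and medians of the synaptic genotype comparison are given with and without these 2 libraries. The WT compartment values include both, and many moved without them. A later paragraph gives examples and the genes whose call changed. The sex markers of 2 nuclear libraries went against their labels (HET female 4 and WT male 7 of the germline line). The P values measure the spread between these libraries, each described as 1 animal within a fraction. In bulk RNA, fewer cells of a type and less RNA per cell cannot be told apart.

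Chd8, the targeted gene (chr14:52198151-52257780, GRCm38, minus strand), was lower in HET than in WT whole cortex of the germline line. WT libraries held a lowest, median and highest of 65.9, 99.8 and 111.8 CPM and HET libraries 41.7, 61.7 and 81.3 CPM, so the ranges overlapped. The log2 fold change was -0.58 (SE 0.075), or 67% of the WT level, with an adjusted P of 7.886e-05 in the quasi-likelihood test of edgeR with Benjamini-Hochberg adjustment over all genes, which gives every adjusted P below. In germline nuclear libraries the level was 116.8 ± 10.7 CPM (SD, n = 12) in WT and 116.6 ± 16.98 (SD, n = 9) in HET, a log2 difference of -0.01 (adjusted P = 0.9862). In the synaptic fraction Chd8 was at 62.97% of WT without WT males 1 and 2 (log2 -0.67, adjusted P = 0.0002218) and at 56.82% with them (adjusted P = 0.3084). In the other comparisons it did not pass the adjusted threshold of 0.05: it was at 74.44% of WT in germline cytosol, 69.84% of the libraries without Cre in conditional cortex, 96.17% and 72.23% of WT in conditional nuclear HET and HOM, and 86.4% and 67.45% in conditional synaptic HET and HOM. The 95% intervals of its log2 fold change, not adjusted for the number of genes, lay below 0 in germline cytosol (-0.61 to -0.25). They also lay below 0 in conditional cortex (-0.94 to -0.10), nuclear HOM (-0.81 to -0.13) and synaptic HOM (-0.94 to -0.20). In conditional nuclear HET (-0.34 to 0.23) and synaptic HET (-0.58 to 0.15) they included 0. The Chd8 levels count reads over the whole gene, and the exons removed by Cre are not stated in the labels.

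In WT whole cortex the chromatin genes ranged over 2 orders of magnitude in level per length of exon. The median gene stood at 8.06 CPM per kilobase (kb) of exon. Smarcc2, the BAF170 scaffold of BAF and PBAF, was highest at 69.4 ± 4.36 CPM per kb (SD, n = 15), followed by Ehmt2, the H3K9 methyltransferase G9a, at 44.6 ± 3.10 and Smarcd1, a further core BAF subunit, at 41.1 ± 1.87. The ranges of Ehmt2 and Smarcd1 overlapped (38.3 to 48.3 against 38.0 to 43.8 CPM per kb), whereas Smarcc2 lay above both in all 15 libraries (63.3 to 79.9). A further 3 genes were above 20 CPM per kb: Smarca4 (28.8) and Smarca2 (22.8), the alternative ATPases of the BAF complex known as BRG1 and BRM, and Hdac5 (26.6), a class IIa deacetylase that shuttles between nucleus and cytoplasm. At the other end, Ezh2, the H3K27 methyltransferase of Polycomb repressive complex 2 that is best known from dividing progenitors, stood at 0.65 CPM per kb. Baz1a, the ACF1 partner of ISWI, stood at 0.62 and Srcap, the ATPase that loads histone H2A.Z, at 0.30 CPM per kb. Exons of other genes overlap 65.01% of the exon length of Srcap. Its level per kb is therefore uncertain, and the part of the overlap in it was not tested. Ezh1, the Polycomb methyltransferase of non-dividing cells, stood at 10.1 CPM per kb and made up 91.6 to 96.0% (median 94.7%, 15 libraries) of Ezh1 and Ezh2 RNA per length. Within pairs of close relatives, Hdac1 made up 32.8 ± 2.92% of Hdac1 and Hdac2, and the ISWI ATPase Smarca1 made up 36.4 ± 3.54% of Smarca1 and Smarca5 (SD, n = 15). The spread between WT libraries had a median coefficient of variation of 11.2%, from 4.54% for Smarcd1 to 34.5% for Kdm6b, an H3K27 demethylase, with Kmt2d, an H3K4 methyltransferase of enhancers, close to the top at 34.2%.

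**Figure D1:**
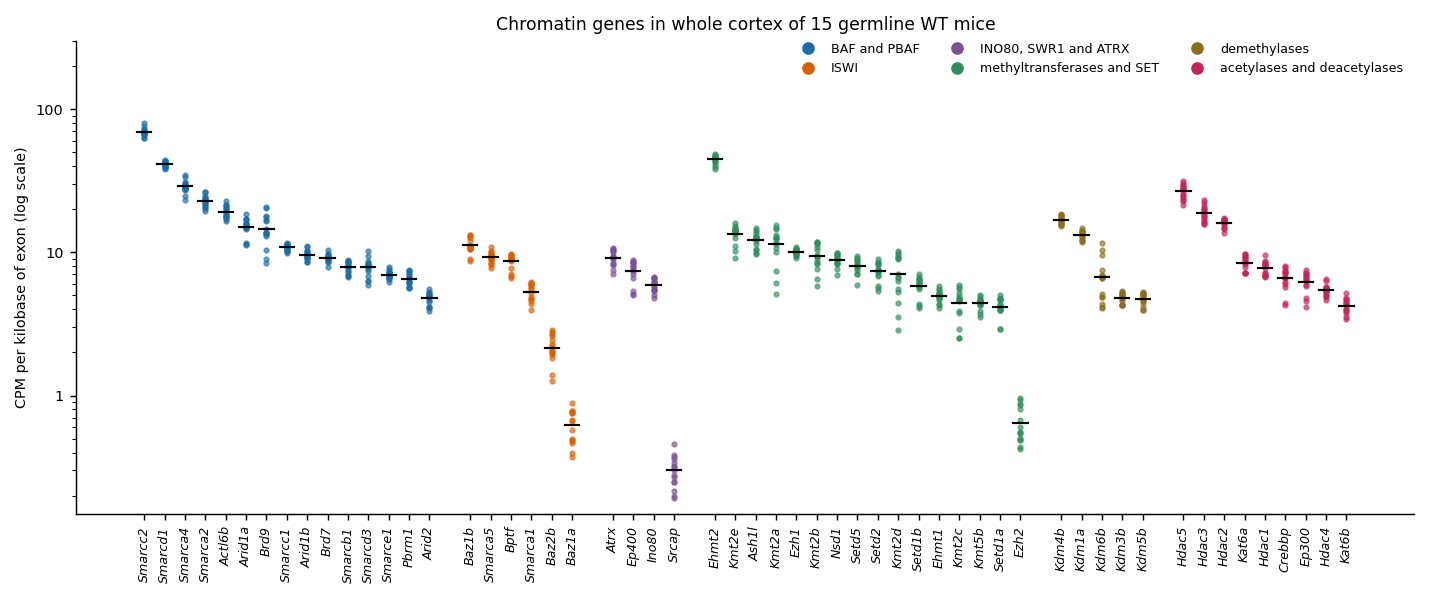
Level of each of the 55 chromatin genes in whole cortex of 15 germline WT mice, in CPM per kilobase of exon on a log axis, grouped by role; points are libraries and bars are means. Smarcc2 sits at 69.4 CPM per kb and Srcap, whose exons overlap other genes over 65.01% of their length, at 0.30. The points of Kmt2d and Kdm6b spread more widely than those of most other genes.

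None of the 55 chromatin genes differed between Chd8 genotypes past the adjusted threshold in any of the 9 genotype comparisons, nor in the germline synaptic comparison without WT males 1 and 2. DESeq2 called none in the 9 comparisons, and limma with voom and sample weights called none either. Without WT males 1 and 2, DESeq2 alone called Ehmt2 lower. The shares of all genes called by DESeq2 and voom are not given here, so these counts are not read as particular to the 55. Shares of all genes in the genotype comparisons below are those of edgeR. In germline whole cortex 0.334% of all genes tested were called, higher or lower (0.187% and 0.146%), against 0 of the 55. Their log2 fold changes lay between -0.25 and 0.28 with a median of -0.042, beside a median of -0.001 over all genes, and 12 of 55 were above 0, beside 49.5% of all genes. At an unadjusted P under 0.05 there were 6 of the 55, beside 9.25% of all genes. They were Baz1a above WT, and Ino80, the ATPase of the INO80 complex, Ehmt2, Kdm4b, an H3K9 demethylase, Kdm5b, an H3K4 demethylase, and Hdac1, a class I deacetylase, below it.

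The precision in germline cortex was narrow for most of the genes: the 95% interval of the log2 fold change reached a median of 0.107 to either side, and for 53 of 55 it lay within 0.5 on either side of 0. Ino80 had the smallest adjusted P. It ranged from 32.5 to 45.8 CPM in WT (median 41.7) and from 25.7 to 44.2 in HET (median 36.3), and the groups overlapped over most of that range. Its log2 fold change was -0.15 (SE 0.050, interval -0.25 to -0.05, adjusted P = 0.2473). Hdac1 ranged from 23.01 to 32.98 CPM in WT and from 21.9 to 29.3 in HET (log2 -0.12, SE 0.044, adjusted P = 0.3523), and Kdm5b from 65.1 to 87.3 and from 54.3 to 83.4 CPM (log2 -0.14, SE 0.053, adjusted P = 0.3715). Baz1a, the only one of the 6 with a higher mean in HET, ranged from 2.67 to 6.32 CPM in WT and from 3.81 to 7.16 in HET (log2 0.28, SE 0.116, adjusted P = 0.4313). Smarcc2 and Smarcd1, the other genes with the smallest P above 0, had log2 differences of 0.06 (adjusted P = 0.656) and 0.04 (adjusted P = 0.7405).

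In the germline nuclear fraction 0.0151% of all genes were called (0.00502% higher and 0.0100% lower) and 0 of the 55, and 0 of the 55 reached an unadjusted P under 0.05, beside 7.38% of all genes. The median was 0.034 (all genes 0.010), with 36 of 55 above 0 (all genes 53.1%). Kmt2a, an H3K4 methyltransferase, had the smallest P: WT libraries held 250.2 to 442.4 CPM (median 302.2) and HET libraries 278.6 to 611.2 (median 351.8), a log2 difference of 0.25 (SE 0.127, adjusted P = 0.7102). The next above 0 were Smarca4 (0.12, adjusted P = 0.7639) and Kdm6b (0.20, adjusted P = 0.8211), and below 0 Smarce1, a DNA-binding BAF subunit (-0.12, adjusted P = 0.7178), Kat6a, a MYST acetyltransferase (-0.14, adjusted P = 0.8158), and Hdac1 (-0.11, adjusted P = 0.8162). The intervals reached a median of 0.153 to either side. In germline cytosol 0 of the 55 and 0% of all genes were called, 0 of the 55 reached an unadjusted P under 0.05 (all genes 3.28%), and the median was -0.024 (all genes 0.006), with 18 of 55 above 0 (all genes 51.9%). The largest difference there was that of Srcap, at -0.33 (SE 0.216, adjusted P = 0.9997), a gene with few counts.

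In the germline synaptic fraction the values of several genes, Brd9 among them, rested on WT males 1 and 2. With all 18 libraries, 0 of the 55 and 0% of all genes were called, 1 of the 55 reached an unadjusted P under 0.05 (Ehmt2, all genes 11%), and the median was -0.050 (all genes -0.002), with 14 of 55 above 0 (all genes 49.6%). Brd9, the bromodomain subunit of the non-canonical BAF complex, stood at 294.3 and 279.1 CPM in WT males 1 and 2 and at 40.4 to 62.6 CPM in the other 9 WT libraries, beside 34.3 to 48.7 CPM in HET. Without these 2 libraries 0.842% of all genes were called (0.451% higher and 0.391% lower) and 0 of the 55, the median was 0.020 (all genes -0.008) and 31 of 55 were above 0 (all genes 47.9%). At an unadjusted P under 0.05 there were then 3 of the 55, all below WT, beside 19% of all genes. Ehmt2 held 161.3 to 207.4 CPM in the 9 WT libraries and 126.5 to 174.5 CPM in the 7 HET libraries, with overlap, for a log2 difference of -0.21 (SE 0.067, adjusted P = 0.1007). Hdac5 (-0.24, SE 0.090, adjusted P = 0.1549) and Actl6b, the actin-like BAF subunit of neurons (-0.16, SE 0.065, adjusted P = 0.1819), followed. The genes with the smallest P above 0 were Arid1a, Arid2 and Setd1b (0.12, 0.14 and 0.17, adjusted P = 0.3109, 0.3187 and 0.3078).

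In conditional whole cortex the chromatin genes stood lower with Cre as a group, and none was called. The median log2 difference was -0.205, beside 0.001 over all genes, and 7 of 55 were above 0, beside 50.1% of all genes. No gene of the whole table was called (0%), and 0 of the 55 reached an unadjusted P under 0.05 (all genes 3.08%). The spread was wide here, with intervals that reached a median of 0.407 to either side, and the interval lay within 0.5 on either side of 0 for 22 of 55. Kmt2d had the smallest P. The 8 libraries without Cre held 35.2 to 89.2 CPM (median 62.6) and the 6 with Cre 27.4 to 77.9 CPM (median 45.3), which overlapped broadly, for a log2 difference of -0.49 (SE 0.274, adjusted P = 0.882). Crebbp, the CBP acetyltransferase, differed by -0.32 (SE 0.203) and Setd1a, an H3K4 methyltransferase, by -0.29 (SE 0.193), while Smarcd3, Hdac3 and Hdac1 had differences of 0.20, 0.15 and 0.13, all with an adjusted P of 0.882. The nuclear-retained RNAs moved with the same groups, at 1374 to 4247 CPM (median 2193) without Cre and 1287 to 1814 CPM (median 1691) with it. With their level as a covariate the median of the 55 was -0.163, with 6 above 0; their part in the difference cannot be told apart from that of the groups. Leaving out 1 library at a time gave medians of -0.319 to -0.090.

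In the conditional nuclear fraction none of the 55 was called. In HOM against WT, 0% of all genes were called, 5 of the 55 reached an unadjusted P under 0.05 (all genes 11.6%) and all 5 lay below WT: Ezh2, Kmt2d, Kmt2b, Ino80 and Kmt5b, the H4K20 methyltransferase. The median was -0.126 (all genes -0.010), with 17 of 55 above 0 (all genes 48.9%), and leaving out 1 library at a time gave -0.158 to -0.019, highest without HOM female 1. The 4 WT libraries held Ezh2 at 9.38, 14.5, 15.5 and 19.4 CPM and the 3 HOM libraries at 7.07, 8.13 and 9.34 CPM, so the groups did not overlap, though the lowest WT library lay next to the highest HOM one. The log2 difference was -0.76 (SE 0.216, interval -1.21 to -0.30, adjusted P = 0.4256). With no filter on low counts Ezh2 alone of the 55 passed, with an adjusted P of 0.0178. The share of all genes called in that fit is not given here, so the call is not read as particular to Ezh2. Kmt2d stood at 226.4, 260.5, 273.4 and 296.7 CPM in WT and at 139.6, 206.6 and 208.4 CPM in HOM, again without overlap (log2 -0.43, SE 0.162, adjusted P = 0.4256). Both genes are named for their small P, and how many of all genes separate in groups this small was not counted. Kmt2b followed at -0.33 (SE 0.127, adjusted P = 0.4256). Without HOM female 1, Kmt2d stood at -0.19 and Kmt2b at -0.17, whereas Ezh2 stood between -0.91 and -0.61 with any 1 library left out. Above 0 the smallest P were those of Smarcd1, Smarcc2 and Arid1b (0.22, 0.26 and 0.18, adjusted P = 0.471, 0.4992 and 0.5175).

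The nuclear-retained RNAs summed to 20665 to 34114 CPM (median 30096) in WT, 16657 to 32607 CPM (median 23544) in HET and 17087 to 26249 CPM (median 19515) in HOM. With them as a covariate the HOM median was 0.0035 and 29 of 55 lay above 0; as they differ between the genotypes, their part and that of the genotype cannot be told apart. In HET against WT, 0 of the 55 and 0% of all genes were called, the median was -0.010 (all genes 0.013), 25 of 55 were above 0 (all genes 52.7%) and 2 reached an unadjusted P under 0.05 (all genes 4.45%). They were Srcap, at 2.79 to 4.43 CPM in the 4 WT and 2.03 to 2.66 CPM in the 6 HET libraries (log2 -0.61, SE 0.209, adjusted P = 0.9334), and Ezh2, at 7.81 to 14.2 CPM in HET (log2 -0.43, SE 0.180, adjusted P = 0.9334). The difference of Kat6a was -0.15, and those of Smarcd1, Ehmt2 and Actl6b were 0.17, 0.14 and 0.13, all with the same adjusted P.

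In the conditional synaptic fraction 0% of all genes were called in either comparison, and 0 of the 55. HET against WT gave a median of -0.086 (all genes -0.005), 9 of 55 above 0 (all genes 48.6%) and 4 of 55 with an unadjusted P under 0.05 (all genes 4.37%), all below WT: Ep300, the p300 acetyltransferase, Kdm6b, Kmt2d and Bptf, the histone reader of the NURF complex. Ep300 stood at 66.8, 67.6, 69.4 and 71.4 CPM in WT and at 48.8, 51.1, 54.7, 62.5 and 71.6 CPM in HET (log2 -0.22, SE 0.086, adjusted P = 0.995), and Kdm6b differed by -0.41 (SE 0.174, adjusted P = 0.995). HOM against WT gave a median of 0.006 (all genes 0.0005), 29 of 55 above 0 (all genes 50.1%) and 3 of 55 with an unadjusted P under 0.05 (all genes 4.96%): Ino80 (-0.24, SE 0.086), Kmt2d (-0.18, SE 0.074) and Smarca2 (-0.16, SE 0.070), each with an adjusted P of 0.9229. Kmt2d held 100.6 to 112.7 CPM in the 4 WT libraries, 80.9 to 99.4 CPM in the 5 HET and 88.6 to 101.1 CPM in the 5 HOM libraries, so WT lay above HET without overlap and above all but 1 HOM library. The nuclear-retained RNAs had medians of 2657 CPM in WT, 1842 in HET and 1794 in HOM (1647 to 3408, 1652 to 3061 and 1231 to 2571), and their part in these values was not tested beyond a fit with them as a covariate, which gave medians of -0.079 and 0.042. Both comparisons use the same 4 WT libraries. The remaining genes with the smallest P above 0 were Arid1b, Hdac1 and Srcap in HET (0.09, 0.07 and 0.14) and Setd1b, Smarcc2 and Smarcd1 in HOM (0.21, 0.18 and 0.16), none with an adjusted P under 0.9229.

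**Figure D2:**
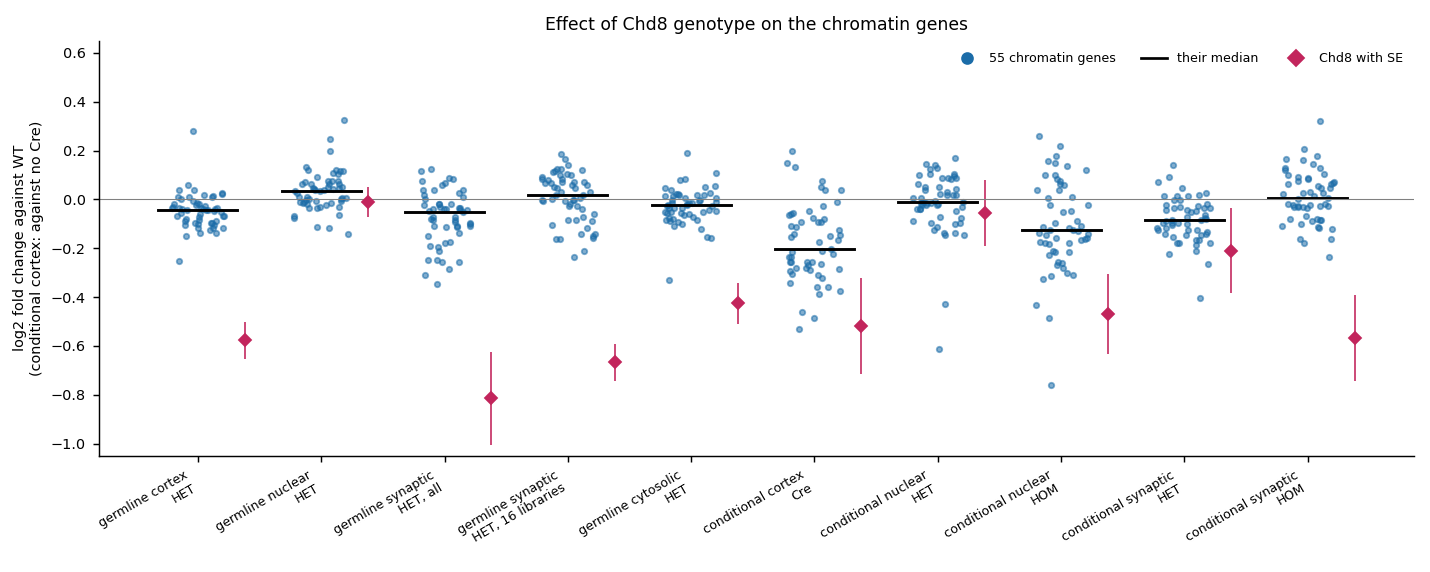
Log2 fold change of each of the 55 chromatin genes (points) in 10 fits of genotype, with their median as a line and Chd8 as a diamond with its SE; the fourth fit leaves out synaptic WT males 1 and 2. The lowest point is Ezh2 in conditional nuclear HOM at -0.76, no chromatin gene passed the adjusted threshold, and the median is lowest in conditional cortex at -0.205.

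The compartment comparisons set the synaptic library of an animal against its nuclear library, with the animal as a block, and here many of the chromatin genes differed. The methyltransferases Ezh2, Kmt2a, Kmt2c, Kmt2d, Ehmt1, Nsd1 and Kmt5b, the ISWI partners Baz1a, Baz1b and Baz2b and the deacetylase Hdac1 were lower in synaptic RNA in all 3 comparisons. The BAF ATPases Smarca2 and Smarca4, the BAF subunits Smarcc1, Smarcc2 and Arid1b, the ISWI ATPase Smarca5 and the deacetylase Hdac5 were higher relative to the bulk of genes, a direction that rests on the scaling. In 10 germline WT animals 16 of the 55 were higher and 17 lower at an adjusted P under 0.05, beside 30.8% and 35.1% of all genes. In 5 germline HET animals 14 were higher and 23 lower (all genes 34.5% and 38.5%), and in 12 conditional animals 20 were higher and 22 lower (all genes 33.2% and 42.0%). These shares are near those of all genes, and the medians of the 55 were -0.115, -0.162 and 0.023 beside -0.062, -0.045 and -0.141. The germline WT and HET and the conditional animals are different mice. Across the 55 genes the log2 fold changes of WT and HET had a Pearson r of 0.94, of WT and conditional 0.935 and of HET and conditional 0.968, in points that share gene models and the fractionation method. Of the genes called lower, 16 were so in all 3 comparisons, and of those called higher 12, while no gene was called in opposite directions and 9 were called in none. Of the 18290 genes tested in all 3, 30.2% were lower in all, 26.3% were higher in all, 0.815% were called in opposite directions and 11.7% in none, so the shares of the 55 are near those of all genes.

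Higher and lower depend on what the libraries are scaled to. The scaling used here (TMM) holds the bulk of genes level. Scaling to total counts alone moved the median over all genes to -0.563, -0.654 and -0.691, and the counts of the 55 to 2 higher and 39 lower in WT, 0 and 47 in HET, and 3 and 45 in the conditional animals. Of all genes 9.71% were then higher and 54.6% lower in WT, 13.5% and 56.8% in HET, and 13.2% and 66.5% in the conditional animals. The same 16 genes were called lower in all 3 comparisons under each of 5 fits (TMM, RLE, upper quartile, total counts and DESeq2). The share of all genes lower under every fit is not given here, so this is not read as particular to the 55. Of the 55, none was called higher in all 3 under every fit. A gene called higher below was therefore higher relative to the bulk of genes, and for those the results turn on the CPM is given too.

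**Figure D3:**
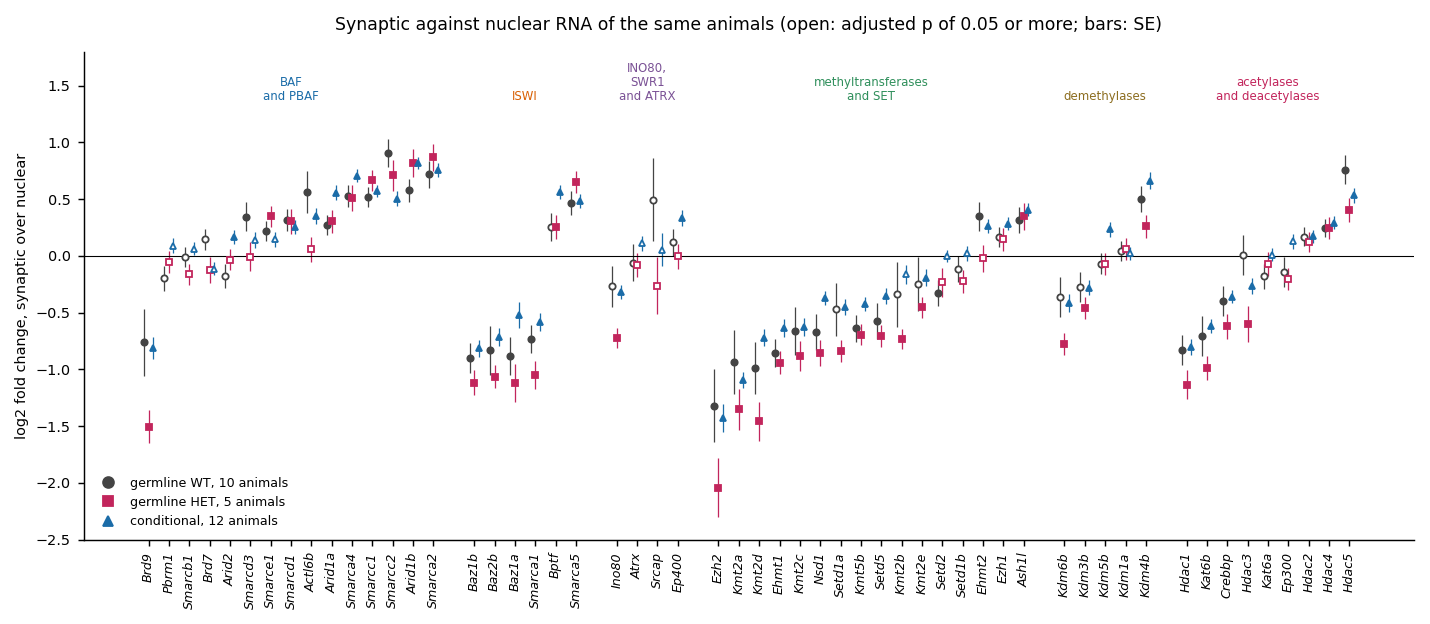
Log2 fold change of synaptic over nuclear RNA for each of the 55 chromatin genes in 10 germline WT, 5 germline HET and 12 conditional animals, with SE, scaled so that the bulk of genes sits near 0; open symbols have an adjusted P of 0.05 or more. Ezh2, Kmt2a, Kmt2d, Brd9, Baz1b and Hdac1 lie below 0 and Smarca2, Arid1b, Smarcc1 and Smarca5 above it in all 3. On total counts alone none of the 55 was called higher in all 3.

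Among remodellers, both BAF ATPases were higher in all 3 comparisons relative to the bulk of genes, as were 5 core and targeting subunits: Smarcc1, Smarcc2, Smarcd1, Arid1a and Arid1b. With upper quartile scaling Smarcd1 and Arid1a were not called higher in all 3. The CPM of Smarcd1 was lower in the synaptic library in 9 of 10 germline WT and 4 of 5 germline HET animals. That of Arid1a was lower in 8 of 10 and 5 of 5. In 15 germline animals Smarca2 held 201.4 to 289.2 CPM in nuclear and 217.6 to 311.2 CPM in synaptic libraries, and was higher in the synaptic one in 13 of 15 animals and in 11 of 12 conditional animals. Its log2 fold change was 0.72 (SE 0.116) in WT, 0.87 (SE 0.117) in HET and 0.76 (SE 0.060) in conditional animals, and on total counts 0.22, 0.26 and 0.21. Arid1b, which directs canonical BAF to its sites, held 61.7 to 102.0 CPM in nuclear and 68.2 to 106.8 CPM in synaptic germline libraries, ranges that overlap almost entirely. Its log2 fold change was 0.58 (SE 0.098), 0.82 (SE 0.126) and 0.82 (SE 0.053), and its CPM was higher in synaptic RNA in 11 of 15 germline and 12 of 12 conditional animals. Smarcc2 had the largest value in WT (0.91, SE 0.123, adjusted P = 7.513e-05), but on CPM it was higher in the synaptic library in 11 of 15 germline and in 3 of 12 conditional animals.

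The remaining subunits of BAF and PBAF differed less. Brd9 alone of them was lower in all 3 comparisons, by -0.76 (SE 0.296) in WT, -1.51 (SE 0.146) in HET and -0.81 (SE 0.0997) in conditional animals. It held 109.1 to 233.9 CPM in germline nuclear libraries and 34.3 to 62.6 CPM in synaptic ones other than WT males 1 and 2, with no overlap. Pbrm1, Brd7 and Smarcb1, which belong to PBAF or to the common core, were called in none of the 3, and Arid2, the targeting subunit of PBAF, was called only in the conditional animals (0.17, SE 0.063). Actl6b was called higher in WT (0.56, SE 0.189) and conditional animals (0.35, SE 0.072); its value in WT included 159.2 and 144.3 CPM in WT males 1 and 2, beside 48.2 to 62.1 CPM in the other synaptic WT libraries. Smarce1 was higher in WT (0.22, SE 0.090) and HET (0.35, SE 0.092) relative to the bulk of genes, but on total counts it was called lower in all 3 (-0.28, -0.26 and -0.41), and its CPM was lower in the synaptic library in 14 of 15 germline and 12 of 12 conditional animals. Smarcd3 was called higher in WT alone (0.34, SE 0.126), and without the animals of WT males 1 and 2 its value was 0.20 (adjusted P = 0.1144).

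The ISWI ATPases went opposite ways. Smarca1 (SNF2L) was lower by -0.73 (SE 0.125), -1.047 (SE 0.124) and -0.58 (SE 0.080), and Smarca5 (SNF2H) was higher by 0.46 (SE 0.105), 0.65 (SE 0.095) and 0.48 (SE 0.059). On total counts Smarca5 stood near 0 (-0.04, 0.04 and -0.07) and was higher in 7 of 15 and 6 of 12 animals. The share of Smarca1 in the sum of both per length needs no scaling: it was 60.02 ± 2.56% in 12 nuclear WT libraries and 34.9 ± 2.23% in the 9 synaptic WT libraries without males 1 and 2, against 36.8 ± 4.22% in 5 cytosolic ones (SD). It was lower in the synaptic library in 15 of 15 germline and 12 of 12 conditional animals. Of the ISWI partners, Baz1a, Baz1b and Baz2b were lower in all 3 comparisons, Baz1b by -0.90 (SE 0.130), -1.12 (SE 0.110) and -0.82 (SE 0.077), whereas Bptf was higher in HET and conditional animals. Ino80 was lower in HET (-0.73, SE 0.089) and conditional animals (-0.32, SE 0.061), Ep400 was higher in the conditional animals alone (0.33, SE 0.067), and Srcap and Atrx, a remodeller that deposits histone H3.3, were called in none.

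Of the 6 H3K4 methyltransferases 3, 5 and 4 were lower in WT, HET and conditional animals and none was higher. Kmt2a, Kmt2c and Kmt2d were lower in all 3. Kmt2d held 242.8 to 569.1 CPM in nuclear libraries of 15 germline animals and 48.2 to 328.4 CPM in their synaptic libraries, where the top 2 values were those of WT males 1 and 2 and the next was 121.3 CPM. Its log2 fold change was -0.99 (SE 0.229), -1.46 (SE 0.172) and -0.72 (SE 0.074). Kmt2a differed by -0.93 (SE 0.283), -1.35 (SE 0.183) and -1.09 (SE 0.071), and in the conditional animals it held 201.6 to 340.9 CPM in nuclear and 69.3 to 127.3 CPM in synaptic libraries. Kmt2b and Setd1a were lower in HET (-0.73 and -0.84), Setd1a also in the conditional animals (-0.45), and Setd1b in none. Of the SET domain proteins with little known enzyme activity, Setd5 was lower in all 3 and Kmt2e in HET and conditional animals.

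Ezh2 was the most depleted of the 55 in each comparison. In the conditional animals it held 7.07 to 19.4 CPM in nuclear and 2.16 to 3.31 CPM in synaptic libraries, with no overlap and lower in 12 of 12 animals. The log2 fold change was -1.43 (SE 0.123, adjusted P = 2.212e-10). In germline WT it was -1.32 (SE 0.32, adjusted P = 0.003022) and in HET -2.04 (SE 0.256, adjusted P = 3.071e-05), with synaptic levels of 1.09 to 2.78 CPM in HET. In the same libraries Ezh1 was called higher in the conditional animals alone (0.28, SE 0.058), and its share of Ezh1 and Ezh2 per length was higher in the synaptic library in 14 of 15 and 12 of 12 animals. The H3K9 methyltransferases parted likewise: Ehmt1 (GLP) was lower in all 3 (-0.86, -0.94 and -0.64) and Ehmt2 was higher in WT (0.35) and conditional animals (0.26), and the share of Ehmt1 per length was lower in 15 of 15 and 12 of 12. Of the H3K36 methyltransferases Nsd1 was lower in all 3 (-0.67, -0.86 and -0.37), Ash1l was higher (0.32, 0.35 and 0.41), and Setd2, which trimethylates this residue, was lower in WT alone (-0.33, SE 0.113). Kmt5b was lower in all 3 (-0.64, -0.70 and -0.43).

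Of the enzymes that remove marks, Kdm4b was higher in all 3 comparisons (0.50, 0.26 and 0.66), Kdm3b and Kdm6b were lower in HET and conditional animals, Kdm5b was higher in the conditional animals alone (0.23), and Kdm1a, the LSD1 demethylase, was called in none. Hdac1 was lower by -0.83 (SE 0.130), -1.14 (SE 0.130) and -0.80 (SE 0.073). Its CPM was lower in the synaptic library in 15 of 15 germline and 12 of 12 conditional animals, with 31.1 to 60.2 CPM in nuclear and 12.7 to 17.9 CPM in synaptic libraries of the latter. Hdac2, its partner in the same corepressor complexes, was called higher in the conditional animals alone (0.17, SE 0.057). Hdac3, the catalytic subunit of the NCoR complexes, was lower in HET (-0.60, SE 0.159) and conditional animals (-0.27, SE 0.071). The share of Hdac1 in the sum of Hdac1 and Hdac2 per length was 48.8 ± 3.95% in 12 nuclear WT libraries and 29.7 ± 1.12% in 9 synaptic ones (SD), and was lower in every one of the 15 and 12 animals. Hdac5 was higher in all 3 by 0.76 (SE 0.125), 0.41 (SE 0.109) and 0.53 (SE 0.064), although on total counts it stood at 0.26, -0.20 and -0.02. The direction of Hdac4, the other class IIa deacetylase measured, turned with the scaling: it was called higher in all 3 with TMM (0.25, 0.24 and 0.29) and lower in all 3 on total counts (-0.25, -0.37 and -0.26), and its CPM was lower in the synaptic library in 14 of 15 germline and 11 of 12 conditional animals. Among acetyltransferases, Crebbp (-0.40, -0.62 and -0.36) and Kat6b (-0.71, -0.99 and -0.62) were lower in all 3, and Ep300 and Kat6a in none.

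**Figure D4:**
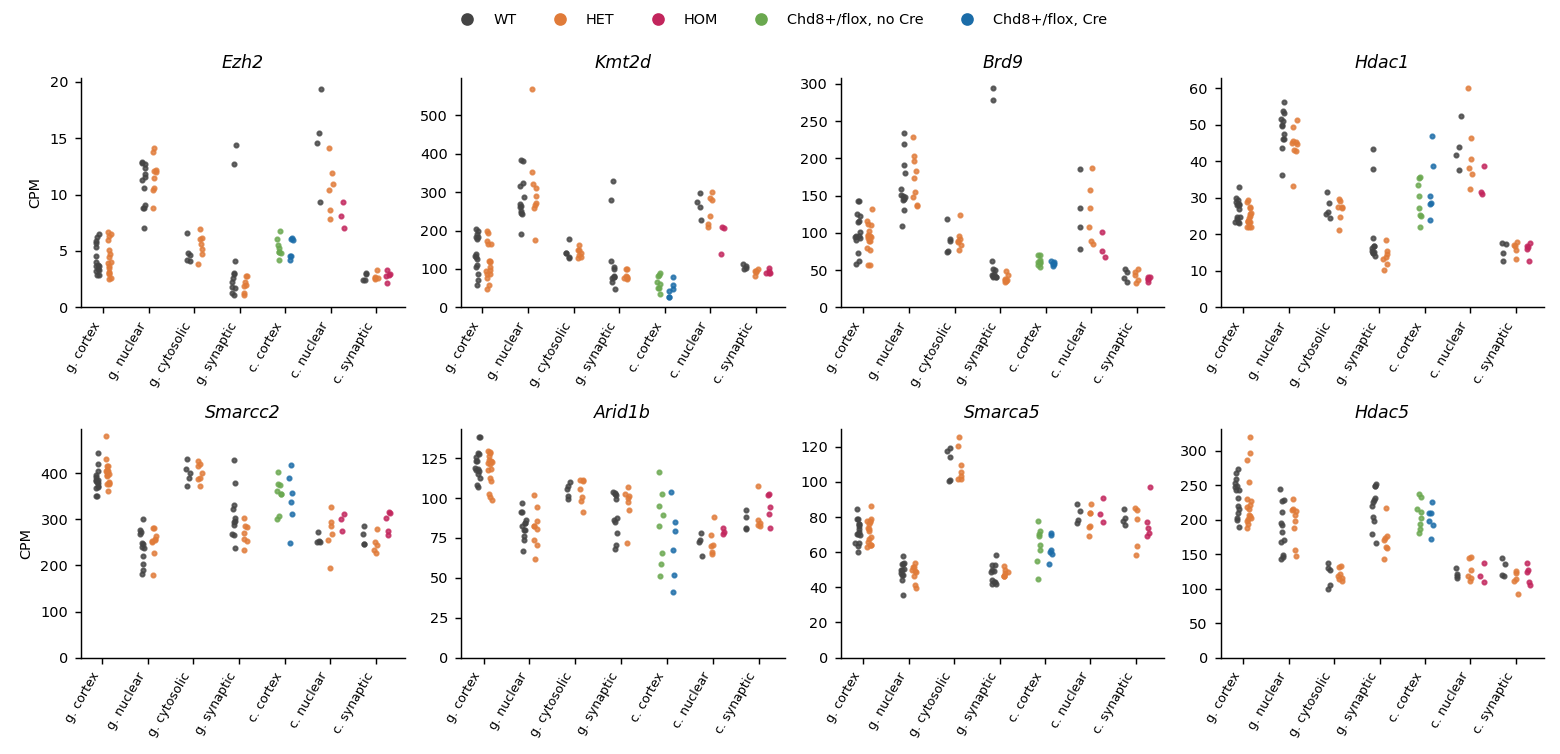
CPM per library of 8 of the chromatin genes in the 7 sets of germline (g.) and conditional (c.) libraries, coloured by genotype. Ezh2, Kmt2d, Brd9 and Hdac1 are high in nuclear and low in synaptic libraries. The exceptions are 2 germline synaptic WT points, which are males 1 and 2. In conditional nuclear libraries the HOM points of Ezh2 and Kmt2d lie below the WT points, though neither difference passed the adjusted threshold.

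Of the other genes called higher in all 3, the sign turned in at least 1 comparison on total counts for Smarcd1 (-0.18, -0.30 and -0.30), Arid1a (-0.23, -0.30 and 0.0029), Ash1l (-0.18, -0.26 and -0.15), Kdm4b (-0.0037, -0.35 and 0.11), Smarca4 (0.03, -0.10 and 0.15) and Smarcc2 (0.41, 0.10 and -0.05). Arid2, Ep400, Ezh1, Kdm5b and Hdac2 were called higher with TMM in the conditional animals alone. On total counts each of them was called lower in all 3 comparisons. The CPM of Hdac2 was lower in the synaptic library in 10 of 10 germline WT and 5 of 5 germline HET animals.

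Leaving out the animals of synaptic WT males 1 and 2 changed the WT comparison to 14 higher and 26 lower with a median of -0.251. Brd9 then stood at -1.21 (SE 0.126), Ezh2 at -1.75 (SE 0.216), Kmt2a at -1.34 (SE 0.161), Kmt2d at -1.34 (SE 0.115) and Actl6b at 0.29 (SE 0.119), all still past the threshold. Other values below 0 also moved away from it, such as Smarca1 (-0.89), Baz1b (-1.08), Hdac1 (-1.01), Ehmt1 (-1.03) and Kat6b (-0.99). Above 0, Smarcc2 then stood at 0.79 and Smarca2 at 0.81. Ash1l (0.23, adjusted P = 0.0758), Ehmt2 (0.22, adjusted P = 0.1059) and Smarcd3 no longer passed. Ino80 (-0.57), Kmt2b (-0.78), Setd1a (-0.85), Setd1b (-0.26), Kmt2e (-0.60), Kdm3b (-0.47), Kdm6b (-0.66), Ep300 (-0.30) and Kat6a (-0.30) newly passed as lower. Hdac2 (0.20) newly passed as higher relative to the bulk of genes. Ino80, Setd1a, Kmt2e, Kdm3b and Kdm6b were also lower in HET and conditional animals. Without these animals they would join the 16 genes lower in all 3 comparisons, and Ash1l would leave the 12 that were higher. Leaving out the animal whose nuclear and synaptic libraries carry markers of different sexes left 15 higher and 16 lower. The shares of all genes in these fits without some animals are not given here, so the counts are not read as particular to the 55. The compartments also differed in cell type markers: 8 endothelial and mural genes summed to 720.7 to 2274 CPM in germline nuclear and 41.0 to 63.6 CPM in HET synaptic libraries, with 45.8 to 508.8 CPM in WT synaptic libraries, and 8 interneuron genes to 544.5 to 1057 and 675.4 to 1756 CPM. The part of these in the differences of the chromatin genes was not tested. Exons of 26 of the 55 overlap those of another gene. The overlap covers more than 10% of their length for Srcap, Setd1a, Smarcd3, Kdm3b, Hdac4 and Smarcd1. For Srcap (61.7%) and Setd1a (51.85%) it is mostly on the same strand, where the strand setting does not decide it. For the rest of these genes it is on the opposite strand, and the strand setting is unknown for the fractions. How reads over both genes were counted is not known here, so counts may gain or miss reads there.

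The difference between compartments was also tested between genotypes, as an interaction term with the animal as a block. None of the 55 and 0% of all genes were called in any of the 3 tests. In the germline line the median of the 55 was -0.203 (all genes -0.068), with 12 of 55 above 0 (all genes 43.8%) and 1 at an unadjusted P under 0.05 (all genes 7.21%). Without the animals of WT males 1 and 2 the median was -0.024 and 23 were above 0. In the conditional line the median was -0.051 for HET (17 of 55 above 0, all genes 49.7%, 1 at an unadjusted P under 0.05, all genes 2.89%) and 0.189 for HOM (45 of 55 above 0, all genes 47.6%, 6 at an unadjusted P under 0.05, all genes 4.78%). The HOM median stayed between 0.081 and 0.219 when each animal was left out in turn, with 3 HOM animals in the fit. The nuclear-retained RNAs of the nuclear libraries differed between the same groups (median 19515 CPM in HOM and 30096 CPM in WT), and their part in this value was not tested.

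Among whole cortex libraries of the germline line, the level of several chromatin genes followed that of the nuclear-retained RNAs, which ranged from 832 to 10359 CPM over 31 libraries. In a fit with genotype, sex and batch, the slope on the log2 summed CPM of these RNAs was above 0 for 20 of the 55 and below 0 for 8 at an adjusted P under 0.05, beside 26.8% and 26.5% of all genes. Kmt2d had the largest slope, at 0.58 log2 units per log2 unit (SE 0.042, adjusted P = 8.171e-14). Its CPM was 57.3 to 203.2 in WT (median 133.6) and 46.3 to 198.0 in HET (median 111.8). Ezh2 followed at 0.40 (SE 0.053), then Kmt2a and Brd9 at 0.33 and Kmt2b at 0.29. The lowest slopes were those of Smarca5 (-0.14, SE 0.025), Smarcc1, Kdm1a and Pbrm1 (each -0.08) and Hdac2 (-0.07). Of the 16 genes lower in synaptic RNA in all 3 comparisons, 9 had a slope called above 0 and none below; of the 12 that were higher, 1 and 3; and of the other 27, 10 and 5. Over all genes, 67.1% of those lower in all 3 had a slope called above 0 and 1.44% below. Of those higher in all 3, 1.98% were called above and 65.4% below. The 16 lower genes went the way of the whole table. The 12 higher genes did so less, with 3 called below 0 and slopes that lay 6 above and 6 below 0.

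In batch CHD807 alone 19 and 9 of the 55 were called above and below 0 (all genes 20.6% and 20.2%), and in batch CHD80456 alone 16 and 2 (21.8% and 16.3%). WT animals alone gave 13 and 1 (19.2% and 16.6%) and HET animals alone 14 and 3 (19.3% and 17.6%). The fit without the 2 libraries farthest from the median gave 13 and 7 (23.7% and 29.1%). With scaling to total counts 30 were above and 3 below (32.2% and 18.3%). With the slope in the model, the median genotype difference of the 55 in germline cortex was -0.025, and 0 of them were called. As a description of the classes, the median GC content of the transcripts was 48.8% for the 16 genes lower in all 3 comparisons. It was 53.6% for the 12 that were higher and 51.2% for the other 27. The ranges overlapped broadly, at 39.5 to 58.4%, 40.7 to 58.8% and 39.5 to 60.8%. Median gene spans of these classes were 80.8, 82.9 and 49.2 kb (23.1 to 310.5, 11.9 to 353.3 and 15.2 to 131.8 kb). Differences between the classes were not tested. The share of all counts held by the 55 together was 0.561% in WT and 0.541% in HET whole cortex, 0.610% and 0.630% in nuclear, and 0.442% and 0.377% in synaptic libraries, where the 9 WT libraries without males 1 and 2 held 0.382%.

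**Figure D5:**
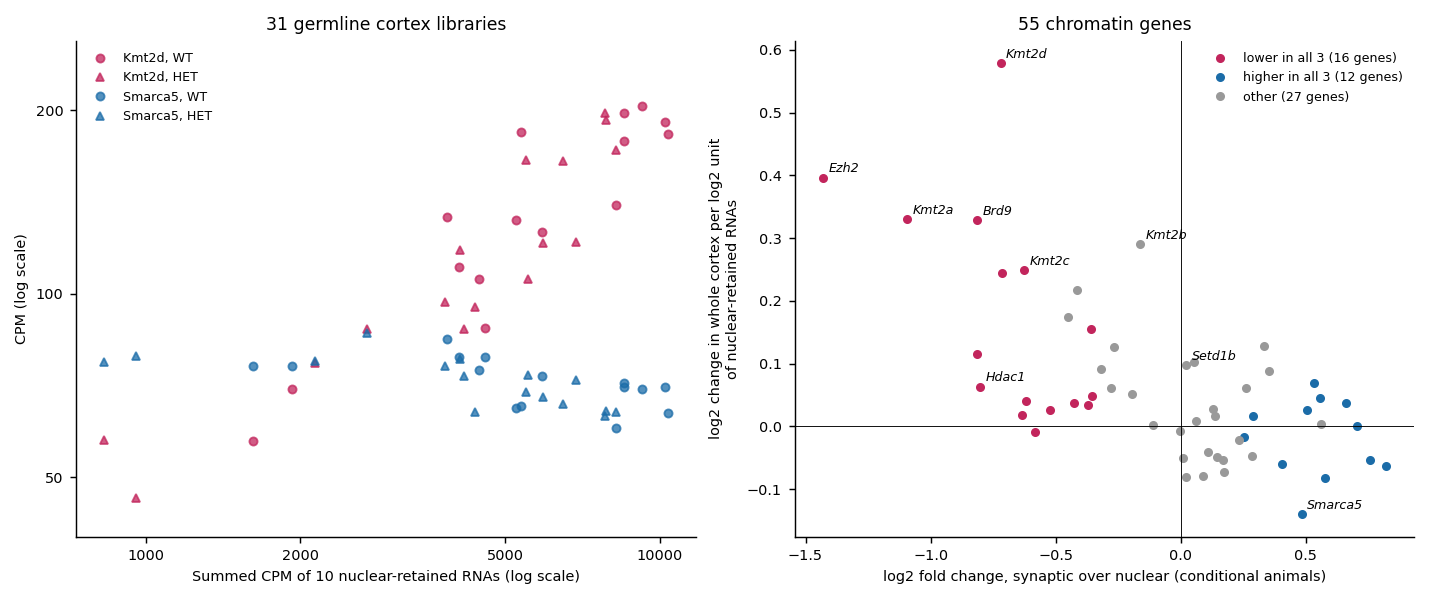
Left: CPM of Kmt2d and Smarca5 against the summed CPM of 10 nuclear-retained RNAs in 31 germline cortex libraries (circles WT, triangles HET, log axes). Right: for each of the 55 chromatin genes, the slope on those RNAs in whole cortex against the log2 fold change of synaptic over nuclear RNA in conditional animals; Kmt2d (0.58) and Ezh2 (0.40) lie at the upper left and Smarca5 (-0.14) at the lower right.

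Other chromatin genes were taken from 6 lists, 144 genes in all, of which 143 were tested in most comparisons. None was called in any of the 9 genotype comparisons; without synaptic WT males 1 and 2, Phc1, a subunit of Polycomb repressive complex 1, was called lower in HET. Between compartments, 37 of 141 were higher and 51 lower in germline WT animals, 38 and 66 of 143 in HET and 47 and 64 of 143 in conditional animals, beside 30.8% and 35.1%, 34.5% and 38.5%, and 33.2% and 42.0% of all genes. Of 36 further histone methyltransferase and Polycomb genes, 19, 21 and 23 were lower and 4, 5 and 6 higher, with medians of -0.39, -0.61 and -0.35 beside -0.062, -0.045 and -0.141 over all genes. The further BAF and PBAF genes gave 6 higher and 4 lower of 15 in WT, 5 and 7 in HET and 5 and 7 in conditional animals. The further ISWI, INO80, SRCAP and EP400 genes gave 10 and 6, 11 and 10, and 13 and 10 of 32, and core and partner genes of COMPASS, the complex around the H3K4 methyltransferases, 4 and 3, 4 and 5, and 6 and 5 of 13. Further demethylases gave 3 and 6 of 13, 3 and 8 of 15, and 5 and 7 of 15, and further acetyltransferases, deacetylases and their corepressors 10 and 13, 10 and 15, and 12 and 12 of 32.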

How the data were processed

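Raw counts per gene were used as the authors deposited them, in 5 tables. Per the submitters' processing notes, the tools were STAR 2.5.4b and featureCounts 2.0.0 and the build GRCm38. The table of conditional cortex names, per the file headers, featureCounts 1.6.0 and Ensembl 95, with no strand or pair option. For the other tables the strand setting was not given in the sources used here. Even numbers made up 56.3 to 74.7% of the counts from 10 to 200 in a library, an excess whose cause was not tested. Of 127 labelled libraries 123 were used; 4 cytosolic ones were not analysed here, and 16 further columns were not used.

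Each comparison was fitted with edgeR 4.0.16 (R 4.3.3, limma 3.58.1; TMM scaling, filterByExpr, quasi-likelihood test, Benjamini-Hochberg over all genes tested, threshold 0.05), checked on simulated counts. Sex was a covariate, with the batch label for germline cortex and its date group for germline nuclear and synaptic libraries. Compartment fits had the animal as a block. Nuclear and synaptic libraries of 1 animal are paired by the animal number in their names. Their deviations correlated above 0.1 in 12 of 15 germline and 10 of 12 conditional animals, with lowest values of -0.142 and 0.048. The library of the same number correlated best in 4 of the 15 and 7 of the 12, so the pairing rests on the names. The titles give no pairing of libraries between genotypes. Libraries of the same sex and replicate number correlated at 0.293 to 0.404 in 4 pairs of conditional nuclear HET and WT. In 4 pairs of conditional synaptic HOM and WT the correlations were 0.122 to 0.274. In each of the other sets the lowest correlation was negative. The main genotype fits did not use this number, and a fit with it as a block was an alternative. DESeq2 1.42.0 and limma's voom were alternatives. CPM are counts per M counts of the library; levels per length divide by merged exon length.

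The chromatin genes, the other lists and the tests were chosen with earlier results of these data known. Named with tests were the 3 genes with the smallest P in each direction of each genotype comparison and the 5 with the largest change in each direction of each compartment comparison; others are given as a description of their role.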

Additional observations from a re-analysis of the deposited data

Results flagged for a closer look

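In groups of 4 to 10 libraries, 100 sets of values were checked for 1 library far from the rest of its group, and 8 had one. Chance marks about 1 in 20 such sets. Hdac1 stood at 33.28 CPM in germline nuclear HET female 2, below the 42.87 to 51.4 CPM of the other 8 HET libraries. Brd9 stood at 123.9 CPM in germline cytosolic HET male 2, above 76.74 to 95.6 CPM, and Ezh2 at 6.63 CPM in germline cytosolic WT male 4, above 4.104 to 4.807 CPM. In conditional nuclear WT libraries Kmt2b stood at 77.65 CPM in female 2, above 67.93 to 69.14 CPM, and Smarcc2 at 272.4 CPM in male 1, above 250.1 to 253.0 CPM. In conditional synaptic libraries Arid1b stood at 107.6 CPM in HET male 2, above 82.5 to 86.34 CPM, and Ep300 at 88.54 CPM in HOM male 1, above 67.17 to 71.82 CPM. The 55 genes together held 0.4007% of the counts in conditional synaptic WT male 2, below 0.415 to 0.4165% in the other 3. Germline cytosolic HET male 2 and WT male 4 also had the highest nuclear-retained RNAs of their groups, at 13843 and 14675 CPM.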

How the results depend on the processing

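Of the counts of genes called under the alternatives, 456 stayed within 1.5 times and 25 moved. Among genotype comparisons, calls appeared in conditional nuclear HOM with no filter (1, Ezh2) and in germline synaptic libraries without WT males 1 and 2 with no filter (1, Hdac5), with DESeq2 (1, Ehmt2) and in leaving out 1 library (0 to 2, with 2 without WT male 6). The replicate block called 0 of the 55 in every genotype comparison, with a median of -0.114 in germline cytosol, and changed no other call; fits of the compartments with no replicate block called 16 higher and 17 lower in WT, 13 and 23 in HET and 20 and 22 in conditional animals. Total count scaling gave 39, 47 and 45 lower and 2, 0 and 3 higher in WT, HET and conditional animals, and 3 slopes below 0. Upper quartile scaling gave 9 higher in WT and 7 in HET (all genes 26.6% and 30.1%). Leaving out the animals of WT males 1 and 2 gave 26 lower in WT. Leaving out 1 HET animal gave 9 to 13 higher, 9 without 17M or 6F. HOM animals alone gave 11 lower, and HET animals alone 12 higher. Counts from subsets of animals and calls in genotype comparisons under the alternatives stand here without the share of all genes. They are not read as particular to the 55. Slopes below 0 numbered 2 in batch CHD80456, 1 in WT and 3 in HET alone, and 5 to 10 with 1 library left out (5 without HET male 5 or HET female 9); slopes above 0 numbered 13 in WT alone and 13 without the 2 farthest libraries, and 15 to 21 with 1 left out. Of single genes, 2333 values kept side and direction, 24 no longer passed, 5 newly passed and 6 changed sign, all near 0. With nuclear-retained RNAs as a covariate the value for germline synaptic HET vs WT: Smarca2 was -0.0293, and in the May batch alone those for germline synaptic HET vs WT without WT males 1 and 2: Arid2 and germline synaptic HET vs WT without WT males 1 and 2: Setd1b were -0.025 and -0.0205. Leaving out 1 library gave -0.0061 to 0.115 for germline synaptic HET vs WT: Arid1a (lowest without HET female 4), -0.0185 to 0.1331 for conditional synaptic HET vs WT: Hdac1 (lowest without WT male 1) and -0.0094 to 0.2262 for conditional synaptic HET vs WT: Srcap (lowest without HET male 1).

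The fits with the covariate, total counts, subsets of the slope and without WT males 1 and 2 were chosen after seeing the data. Depth limits Srcap, Baz1a and Ezh2 most. Conditional cortex, with intervals of 0.407 on either side, and conditional nuclear HOM, with 3 libraries, allow only large differences to be seen. Batch was a term for germline cortex, nuclear and synaptic libraries alone.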
